A study of Homo sapiens with 7 samples.

Results

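Polyadenylated histone variant genes mostly encode histones outside the replication-dependent set, and their mRNAs end in a poly(A) tail, those of H2AFX only in part. A list of 9 of them was taken by gene symbol. No measured value entered its rule, but earlier results of these data were known when the list was chosen. It held H2AFZ, H2AFV, H2AFX and H2AFY, which encode variants of H2A, and H3F3A, H3F3B and CENPA, which encode variants of H3. The linker histone genes H1F0 and H1FX were the others. All 9 had polyadenylation sites (PASs) on their own strand in each of the 3 deposited tables, among 16044 genes with such a PAS in any table. The cells were HEK293, an established human line from embryonic kidney, and the cells of each library were transfected with 1 kind of siRNA: a control (siCtrl), or one directed at Star-PAP (siStarPAP), PAPα (siPAPa) or PAPγ (siPAPg), or those for PAPα and PAPγ jointly (siPAPag). Star-PAP, encoded by TUT1, is a non-canonical nuclear poly(A) polymerase, and PAPα and PAPγ, encoded by PAPOLA and PAPOLG, are canonical ones. Batch 1 held siCtrl, siStarPAP, siPAPa and siPAPg made by 3′READS, siPAPag was tabulated in a file of its own that repeats this siCtrl (the labels give its batch nowhere), and a further siCtrl and siStarPAP, made by 3′READS+, formed batch 2. Both methods read RNA at its junction with the poly(A) tail, and a read therefore marks where an RNA was cleaved and polyadenylated.

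Most histones are made from replication-dependent genes, whose mRNAs end in a stem-loop and carry no poly(A) tail. The variants take the place of these histones at particular sites in chromatin, and most of them do not need DNA replication for it. H2A.Z, made from both H2AFZ and H2AFV, sits at promoters, H2A.X, from H2AFX, becomes phosphorylated around DNA breaks, and macroH2A, from H2AFY, carries a large extra domain and is known from silent chromatin. The same replacement form of H3 is made from H3F3A and H3F3B, CENPA marks the centromere, and H1F0 and H1FX bind the linker DNA between nucleosomes. H2AFX is known to yield stem-loop mRNAs as well as polyadenylated ones, and these methods capture the latter alone.

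The 30 nt that end at the most used PAS of each gene are given below as DNA of the sense strand (hg19), because the poly(A) signal in this stretch is the element that the poly(A) machinery reads. Capitals mark AATAAA or its variant ATTAAA, looked for in 40 nt upstream of the PAS. The windows lie at chr4:100869245-100869274 (minus strand) for H2AFZ, chr17:73774331-73774360 (minus) for H3F3B, chr22:38203410-38203439 (plus) for H1F0, chr3:129033614-129033643 (minus) for H1FX and chr2:27020522-27020551 (plus) for CENPA, which hold AATAAA, and at chr11:118964584-118964613 (minus) for H2AFX and chr1:226259691-226259720 (plus) for H3F3A, which hold ATTAAA.
H2AFZ: ggataagttcAATAAAggtcatatcccaaa
H3F3B: ccttttgcAATAAAactggttatgacttga
H1F0: aactttaaAATAAAttggaaaagggagaaa
H1FX: ttgggcacAATAAAgcgtttaaacctttca
CENPA: actgtaagAATAAAtttgtgttttatctaa
H2AFX: attttATTAAAggattgttttttttttaaa
H3F3A: acATTAAActatacctgcttttggtcttta

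H2AFV and H2AFY had neither hexamer upstream of any of their PASs, and their sequences are shown because both genes carry the PAS choices described further on. H2AFV has a distal PAS at chr7:44873827-44873856 and a proximal one at chr7:44873908-44873937 (minus strand), and H2AFY a last-exon PAS at chr5:134670071-134670100 and an intronic one at chr5:134695173-134695202 (minus strand).
H2AFV distal: gaattgataaaccattttttacaaaattaa
H2AFV proximal: gtttgataaaagtaccttttcatgtggtga
H2AFY last exon: tgagttgatttagtaaaatgttaaaccgtt
H2AFY intronic: gaaaataaccattactgtttacatttttaa
Thus the most used PAS had AATAAA in 5 of the 9 genes, ATTAAA in 2 and neither in 2. Among all PASs on the strand of their gene, 46.3% to 51.3% had AATAAA, by table, and 15.7% to 16.2% had ATTAAA without it. These shares cover minor PASs too and not only the most used PAS of each gene, so the sets are unlike. The most used PAS lay within 4 nt of an annotated transcript end in 8 of the 9 genes, CENPA being the exception. In the deposited tables the H2AFV PASs are typed as intronic, but in GENCODE both lie in the 3′UTR of protein-coding transcripts that end there. The intronic PAS of H2AFY lies within an annotated exon, 86 nt before the end of a transcript.

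The tables held between 2362875 and 16245257 reads per library, so that a count of 0, read as allowing 3 reads, stood for at most 0.12 to 0.706 RPM (reads per 1000000 PASS reads, which are the reads that support a PAS). Each condition had 1 library per batch, and intervals on reads (95%) cover counting error only, not variation between cultures. In such bulk RNA, fewer cells with a transcript and less of it per cell cannot be told apart. TUT1 had 83 reads in siCtrl and 2 in siStarPAP of batch 1. In batch 2 it had 6 (1.19 RPM) and 4 (0.941 RPM), too few to show the KD there. PAPOLA had 71 reads (6.21 RPM) in siCtrl, 12 in siPAPa and 8 in siPAPag. It was also lower in siStarPAP of batch 1, with 44 reads (2.66 RPM). PAPOLG had 5 reads (0.438 RPM) in siCtrl and 15 (1.01 RPM) in the library labelled siPAPg, which goes against that label. It had 28 reads (1.69 RPM) in siStarPAP of batch 1, 36 (1.44 RPM) in siPAPa and 6 (0.319 RPM) in siPAPag. In batch 2 it had 11 in siCtrl and 23 in siStarPAP, and all these counts are low. The paper checked its KDs by immunoblot of the proteins. Directions drawn from the library labelled siPAPg thus rest on its label and that check, not on these reads. Of 7 markers of HEK293 cells, 6 or 7 had reads in every library, and 6 markers of blood, liver and pancreas had none. The median log2 RPM ratio to siCtrl over all genes tested was -0.45 in siStarPAP of batch 1, -0.26 in siPAPa, -0.33 in the library labelled siPAPg, -0.38 in siPAPag and -0.16 in siStarPAP of batch 2, and ratios below are also given relative to it. With TMM factors these medians were 0.03, 0.08, 0.05, 0.05 and 0.01.

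Levels of the 9 genes spanned between 214-fold and 977-fold within a library. In siCtrl of batch 1, H3F3B stood first at 972.8 RPM, followed by H2AFY at 416.1, H2AFV at 145.4, H1FX at 141.9, H2AFZ at 96.6, H3F3A at 6.13, CENPA at 5.78, H1F0 at 2.98 and H2AFX at 2.80. The counting intervals of H2AFV and H1FX overlapped in this order, as did those of H3F3A and CENPA and of H1F0 and H2AFX. In siCtrl of batch 2 the order was H2AFX at 773.9 RPM, H3F3B at 265.8, H2AFV at 212.5, H2AFY at 74.1, H1F0 at 49.1, H1FX at 36.8, H2AFZ at 13.7, CENPA at 4.56 and H3F3A at 0.792. These are values of 3′ ends, which do not depend on mRNA length.

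**Figure D1:**
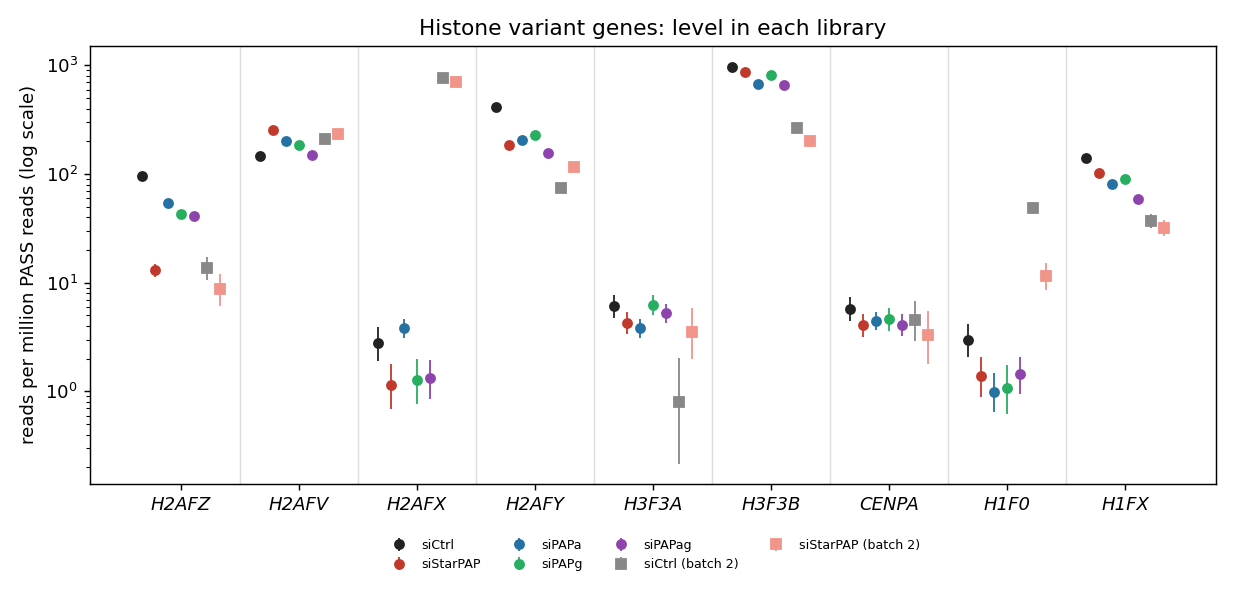
Level of each histone variant gene in the 7 libraries, in RPM on a log axis, with 95% counting intervals. Circles are libraries of batch 1 and siPAPag and squares those of batch 2. H2AFX stands at 1.15 to 3.83 RPM in the circles and at 705 to 774 RPM in the squares.

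The control libraries of the batches stood far apart in several of these genes. H2AFX had 32 reads (2.80 RPM) in siCtrl of batch 1 and 3907 reads (773.9 RPM) in that of batch 2, a log2 ratio of 8.11 (7.61 to 8.66), and 11 of the 12590 genes with reads in both controls had a larger one. H1F0 was higher in batch 2 by 4.05 on the log2 scale (3.52 to 4.61). H2AFZ, H3F3A, H2AFY, H1FX and H3F3B were lower in batch 2, with log2 ratios of -2.82, -2.95, -2.49, -1.95 and -1.87, beside a median of -0.24 over all genes. H2AFV (0.55) and CENPA (-0.34, interval -1.09 to 0.36) differed least. The siStarPAP libraries showed the same for H2AFX, with a log2 ratio of 9.26 between batches, and for H1F0 (3.05), H3F3B (-2.11) and H1FX (-1.66). They did not for H2AFZ (-0.58), H2AFY (-0.67) and H3F3A (-0.28), which were nearer between the siStarPAP libraries than between the controls. Why was not tested. Between the controls, the range from the 5th to the 95th percentile of all genes was -3.45 to 3.3. H2AFX and H1F0 lay outside it and the other 7 genes within it. Batch and protocol cannot be told apart in these libraries, and levels are therefore compared within a batch from here on. The exception is siPAPag, which is set against siCtrl of batch 1 as the deposited table pairs them, although its own batch is not given, so that KD and batch cannot be told apart there if it was made in another.

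**Figure D2:**
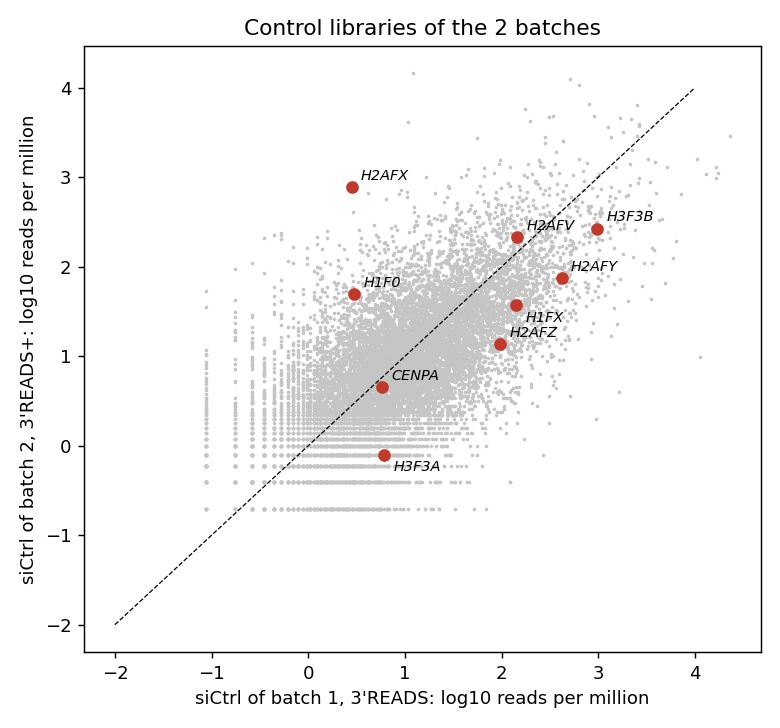
Level of each gene in siCtrl of batch 1 (3′READS, x axis) and siCtrl of batch 2 (3′READS+, y axis), both as log10 RPM, with the histone variant genes in red, the other genes in grey and equal levels as a dashed line. H2AFX (2.80 against 773.9 RPM) stands far above the line, and H3F3A, H2AFZ, H2AFY, H1FX and H3F3B stand below it.

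H2AFZ was the variant gene with the lowest ratio after Star-PAP KD in batch 1. It had 1104 reads (96.6 RPM) in siCtrl, 216 (13.1 RPM) in siStarPAP, 1349 (53.8 RPM) in siPAPa, 639 (43.2 RPM) in the library labelled siPAPg and 771 (41.0 RPM) in siPAPag, whose table lists 1130 reads for siCtrl. Batch 2 held fewer, 69 reads (13.7 RPM) in siCtrl and 37 (8.71 RPM) in siStarPAP. Every KD library thus lay below its control, siStarPAP of batch 1 furthest. The level in siStarPAP of batch 1 was 13.5% of siCtrl (log2 ratio -2.89, interval -3.11 to -2.68, 2.44 below the median), and 1.28% of all genes tested had a lower ratio. The log2 ratio was -0.85 in siPAPa, -1.16 in the library labelled siPAPg, -1.27 in siPAPag and -0.65 (-1.27 to -0.05) in siStarPAP of batch 2, which is 0.59, 0.83, 0.89 and 0.49 below the median of all genes. With TMM factors the values were -2.41, -0.51, -0.78, -0.84 and -0.47.

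H2AFV, which encodes the other form of H2A.Z, lay on the opposite side. It had 1661 reads (145.4 RPM) in siCtrl, 4209 (254.3 RPM) in siStarPAP, 5048 (201.2 RPM) in siPAPa, 2736 (184.9 RPM) in the library labelled siPAPg and 2796 (148.8 RPM) in siPAPag. Counts in batch 2 were 1073 reads (212.5 RPM) in siCtrl and 1001 (235.6 RPM) in siStarPAP. All KD libraries were at or above their control, none by 2-fold. The log2 ratios were 0.81 (0.72 to 0.89), 0.47, 0.35, 0.03 (-0.05 to 0.12) and 0.15 (0.02 to 0.27) in siStarPAP of batch 1, siPAPa, the library labelled siPAPg, siPAPag and siStarPAP of batch 2, or 1.25, 0.73, 0.68, 0.42 and 0.31 above the median of all genes. With TMM factors the ratio in siStarPAP of batch 1 was 1.29 and passed 2-fold.

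The balance of the paralogues can be read within a library, where depth cancels out. H2AFV took 60.1% of the reads of both H2A.Z genes in siCtrl of batch 1 (exact Clopper-Pearson interval 58.2% to 61.9%). It took 95.1% (94.4% to 95.7%) in siStarPAP, 78.9% in siPAPa, 81.1% in the library labelled siPAPg and 78.4% in siPAPag. All 4 shares lay above the interval of siCtrl, siStarPAP by the most. They are set against the same siCtrl library, the lowest of all in this share, so they are not independent. In batch 2 the share was 94.0% (92.4% to 95.3%) in siCtrl and 96.4% (95.1% to 97.5%) in siStarPAP, with overlapping intervals.

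**Figure D3:**
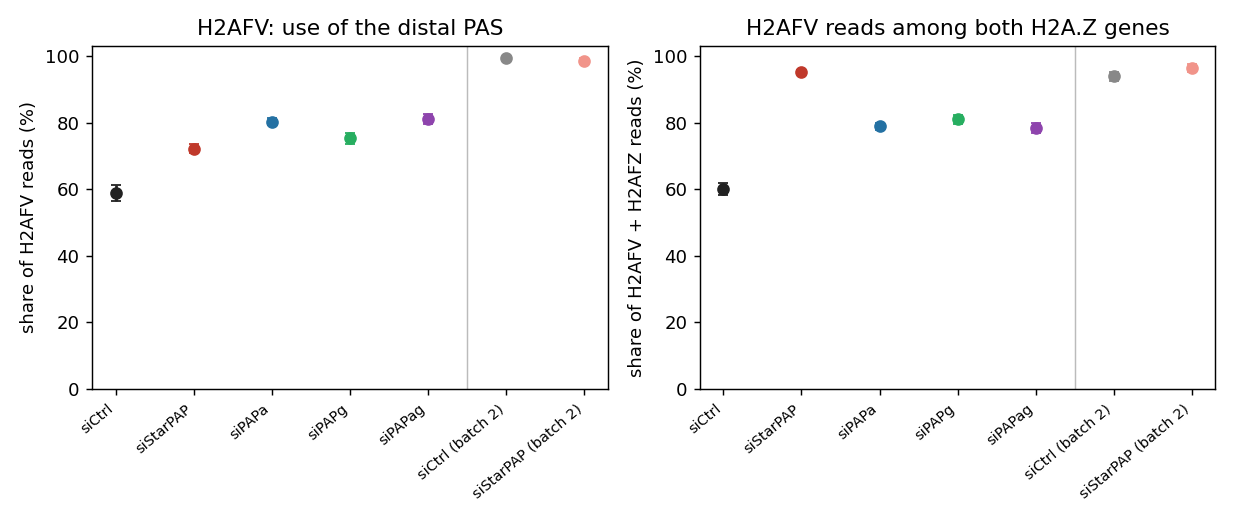
Share of the reads of H2AFV at its distal PAS (left) and share of H2AFV among the reads of H2AFV and H2AFZ together (right), in percent with exact 95% intervals, for each library, batch 2 to the right of the grey line. siCtrl of batch 1 is lowest in both plots, at 58.8% and 60.1%.

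H2AFX had 32 reads (2.80 RPM) in siCtrl, 19 (1.15 RPM) in siStarPAP, 96 (3.83 RPM) in siPAPa and 19 (1.28 RPM) in the library labelled siPAPg. Beside siPAPag it had 18 reads in siCtrl and 25 in siPAPag, too few for the test. Only 1 PAS of H2AFX was listed with siPAPag, beside 4 with siStarPAP of batch 1, siPAPa and the library labelled siPAPg. Set against all 32 reads of siCtrl, siPAPag had a log2 ratio of -1.07, past 2-fold, but the PASs summed then differ. Far more came in batch 2, with 3907 reads (773.9 RPM) in siCtrl and 2996 (705 RPM) in siStarPAP. The libraries of batch 1 rested on fewer than 100 reads, and their intervals were wide, from -2.19 to -0.42 around a log2 ratio of -1.29 in siStarPAP, from -0.14 to 1.08 around 0.45 in siPAPa and from -2.03 to -0.26 around -1.12 in the library labelled siPAPg. The first and the last passed 2-fold. In batch 2, with far more reads, the log2 ratio was -0.13 (-0.20 to -0.07), which is 0.03 above the median of all genes.

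H2AFY had 4754 reads (416.1 RPM) in siCtrl, 3044 (183.9 RPM) in siStarPAP, 5156 (205.5 RPM) in siPAPa, 3370 (227.8 RPM) in the library labelled siPAPg and 2913 (155 RPM) in siPAPag. Its counts in batch 2 were 374 reads (74.1 RPM) in siCtrl and 491 (115.5 RPM) in siStarPAP. Every KD set against siCtrl of batch 1 lay below it, and in batch 2 siStarPAP lay above its siCtrl. The log2 ratios were -1.18 (-1.24 to -1.11), -1.02, -0.87 and -1.43 in siStarPAP, siPAPa, the library labelled siPAPg and siPAPag, and 0.64 (0.44 to 0.84) in siStarPAP of batch 2. The values relative to the median were -0.73, -0.76, -0.54, -1.04 and 0.80.

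The direction of H2AFY in batch 2 came from its intronic PAS. This PAS, 25102 nt upstream of the last-exon PAS, had 22 reads (4.36 RPM) in siCtrl and 312 (73.4 RPM) in siStarPAP, a log2 ratio of 4.07 (3.45 to 4.77). The last-exon PAS had 352 reads (69.7 RPM) and 179 (42.1 RPM), a log2 ratio of -0.73 (-0.99 to -0.46). At the last-exon PAS alone H2AFY was therefore lower in siStarPAP in both batches. The intronic share went from 5.88% (3.72% to 8.77%) to 63.5% (59.1% to 67.8%), a change of 57.7 points (52.4 to 62.4), and 0 of 3042 genes tested had a larger one. In the table with siPAPag the same PAS had 3 of 4757 reads in siCtrl of batch 1 and 9 of 2913 in siPAPag. This PAS was not listed in the other table of batch 1, so that its count in siStarPAP of batch 1 is not known here. The authors kept a PAS if it held over 5% of the reads of its gene in 1 sample or more. Of the rows listed there, 97.5% passed that share within their own table. If the rule held for H2AFY, the intronic share in siStarPAP of batch 1 was at most 5%, beside 63.5% in batch 2. This difference between batches was not tested.

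**Figure D4:**
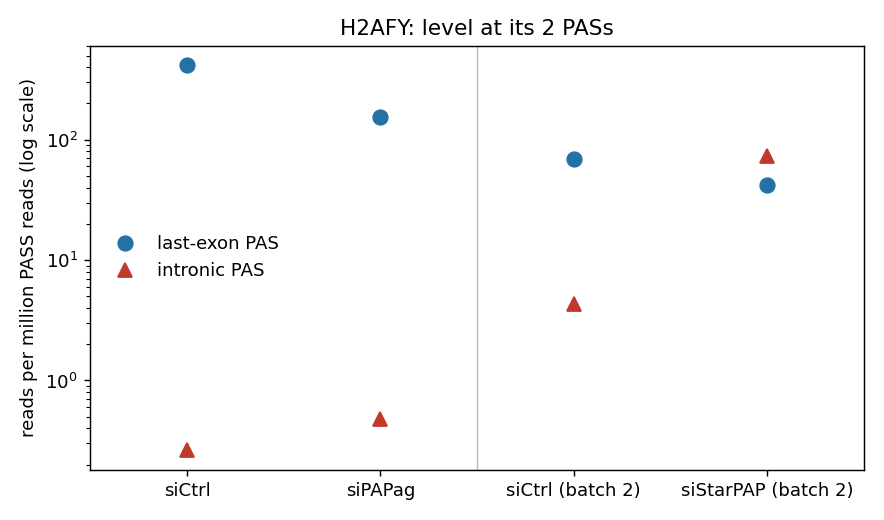
Level of H2AFY at its last-exon PAS (blue circles) and its intronic PAS (red triangles), in RPM on a log axis, in the 4 library columns where both were listed. The intronic PAS stands above the last-exon PAS in siStarPAP of batch 2 alone, at 73.4 against 42.1 RPM.

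H3F3A and H3F3B encode the same H3 protein, and nearly all reads came from H3F3B. H3F3B had 11116 reads (972.8 RPM) in siCtrl, 14310 (864.7 RPM) in siStarPAP, 17081 (680.9 RPM) in siPAPa, 11952 (807.8 RPM) in the library labelled siPAPg and 12410 (660.3 RPM) in siPAPag. Batch 2 gave 1342 reads (265.8 RPM) in siCtrl and 850 (200 RPM) in siStarPAP. By RPM all KD libraries were below their control, none of them by 2-fold, while with TMM factors siStarPAP of batch 1 (0.31) and the library labelled siPAPg (0.11) were above it. The log2 ratios were between -0.57 in siPAPag and -0.17 in siStarPAP of batch 1, and against the median of all genes they lay between -0.26 in siPAPa and 0.28 in siStarPAP of batch 1, with signs of both kinds.

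H3F3A had 70 reads (6.13 RPM) in siCtrl, 71 (4.29 RPM) in siStarPAP, 96 (3.83 RPM) in siPAPa, 93 (6.29 RPM) in the library labelled siPAPg and 98 (5.21 RPM) in siPAPag. Batch 2 gave 4 reads in siCtrl and 15 in siStarPAP. No comparison of H3F3A passed 2-fold among those with enough reads, and batch 2 had too few. H3F3A has many near-identical copies in the genome, so that its reads may be undercounted where they did not map uniquely. H3F3B took between 98.3% and 99.7% of the reads of both genes in every library.

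CENPA had 66 reads (5.78 RPM) in siCtrl, 67 (4.05 RPM) in siStarPAP, 112 (4.46 RPM) in siPAPa, 68 (4.6 RPM) in the library labelled siPAPg and 77 (4.10 RPM) in siPAPag, and 23 and 14 reads in siCtrl and siStarPAP of batch 2. Its libraries stood close together, with log2 ratios between -0.51 and -0.33, and the furthest from the median of all genes was that of siStarPAP in batch 2, 0.30 below it.

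H1F0, a linker histone typical of cells that have stopped dividing, was lower in every KD. It had 34 reads (2.98 RPM) in siCtrl, 23 (1.39 RPM) in siStarPAP, 25 (0.997 RPM) in siPAPa, 16 (1.08 RPM) in the library labelled siPAPg and 27 (1.44 RPM) in siPAPag. There were more in batch 2, 248 reads (49.1 RPM) in siCtrl and 49 (11.5 RPM) in siStarPAP. The log2 ratio in batch 2 was -2.09 (-2.56 to -1.64), and 1.33% of genes tested had a lower one. In batch 1 the ratio was -1.10 (-1.93 to -0.29) in siStarPAP and -1.58 (-2.38 to -0.79) in siPAPa, and in siPAPag, against 33 reads, it was -1.01 (-1.80 to -0.23). All 4 passed 2-fold, while the library labelled siPAPg (-1.46, -2.42 to -0.56) had 50 reads in all and stayed just under the minimum. With TMM factors 2 of them did, siPAPa at -1.24 and siStarPAP of batch 2 at -1.91.

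H1FX had 1621 reads (141.9 RPM) in siCtrl, 1683 (101.7 RPM) in siStarPAP, 2048 (81.6 RPM) in siPAPa, 1327 (89.7 RPM) in the library labelled siPAPg and 1104 (58.7 RPM) in siPAPag. In batch 2 it had 186 reads (36.8 RPM) in siCtrl and 137 (32.2 RPM) in siStarPAP. siPAPag was lowest, with a log2 ratio of -1.27 (-1.38 to -1.16), past 2-fold and 0.89 below the median of all genes. The ratio in siStarPAP was -0.48 in batch 1 and -0.19 (-0.52 to 0.13) in batch 2, 0.03 below the median in both.

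**Figure D5:**
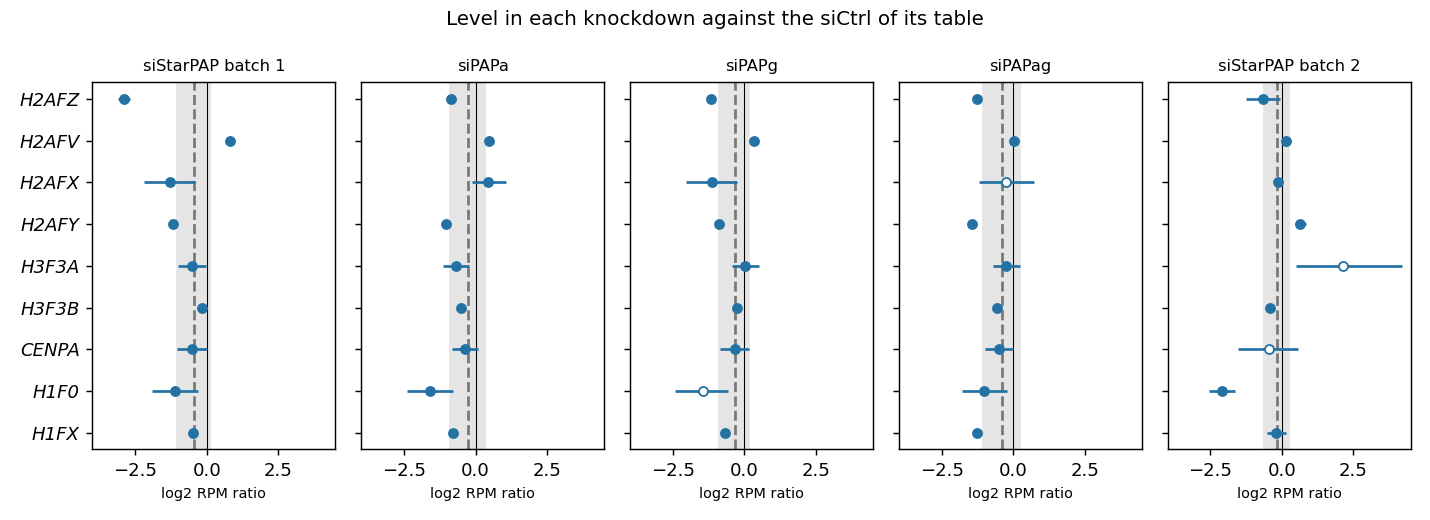
Log2 RPM ratio of each histone variant gene in each KD against the siCtrl it was tabulated with, with 95% counting intervals. The dashed line is the median of all genes tested, the grey band their quartiles, and open circles had too few reads for the test. H2AFZ stands at -2.89 in siStarPAP of batch 1 and H2AFV at 0.81.

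Counted by a change above 2-fold with more than 50 reads in the pair, H2AFZ, H2AFX, H2AFY and H1F0 were down in siStarPAP of batch 1, which is 4 of 9 genes tested beside 26.2% of all genes, and none was up (4.44% of all genes). In siPAPa H2AFY and H1F0 were down, 2 of 9 beside 22.1%, and 0 up beside 8.5%. In the library labelled siPAPg H2AFZ and H2AFX were down, 2 of 8 beside 20.7%, and 0 up beside 5.67%. In siPAPag H2AFZ, H2AFY, H1F0 and H1FX were down, 4 of 8 beside 26.5%, and 0 up beside 6.98%. In siStarPAP of batch 2 H1F0 was down, 1 of 7 beside 11.7%, and 0 up beside 3.55%. The 4 comparisons with siCtrl of batch 1 share that library. The numbers are small, and where they pass the share of all genes they do so by fewer than 2 genes. The split depended on the scaling. Genes that went down made up 85.5%, 72.2%, 78.5%, 79.1% and 76.7% of all calls in the 5 comparisons by RPM, and 52.5%, 48.0%, 49.3%, 50.4% and 58.0% with TMM factors. With TMM factors the calls left were H2AFZ down and H2AFV up in siStarPAP of batch 1, H1F0 down in siPAPa and H1F0 down in siStarPAP of batch 2.

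Star-PAP KD is the comparison with a library in each of both batches, and edgeR's quasi-likelihood test with batch as a block was run over 11878 genes. At an adjusted p (Benjamini-Hochberg) below 0.05, 1.08% of all genes were down and 1.23% up, and 0 of the 9 histone variant genes passed. DESeq2 also called 0, and 3 of the 9 had an unadjusted p below 0.05 in either tool, beside 15.0% of all genes in edgeR. These 3 were H2AFZ, with a log2 fold change of -1.54 (SE 0.43, edgeR adjusted p = 0.0636), H1F0, with -1.33 (SE 0.45, edgeR adjusted p = 0.136), and H2AFV, with 0.83 (SE 0.35, edgeR adjusted p = 0.255). Each had the same direction in both batches. Without the filter on low counts, which changes the genes tested, H2AFZ passed (edgeR adjusted p = 0.00775). The other 6 had log2 fold changes between -0.25 (H2AFX) and 0.85 (H3F3A, SE 0.73).

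Use of PASs was compared where a gene had at least 2 PASs and 50 reads in both libraries, a change of 10 points or more in the share of any PAS being counted. H2AFV and CENPA changed in siStarPAP of batch 1 (2 of 3 genes, beside 55.1% of all genes), H2AFV, H3F3A and CENPA in siPAPa (3 of 4, beside 57.3%), H2AFV in the library labelled siPAPg (1 of 4, beside 50.6%), H2AFV and CENPA in siPAPag (2 of 6, beside 50.8%) and H2AFY in siStarPAP of batch 2 (1 of 3, beside 29.7%). H1FX had 1 PAS in every table.

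H2AFV used its distal PAS, 77 to 81 nt beyond the proximal one, in 58.8% of reads in siCtrl of batch 1 (56.4% to 61.2%). The share was 72.2% (70.8% to 73.5%) in siStarPAP, 80.2% (79.1% to 81.3%) in siPAPa, 75.3% (73.6% to 76.9%) in the library labelled siPAPg and 81.2% (79.7% to 82.6%) in siPAPag. The intervals of all 4 KDs lay above that of siCtrl, and the shares were higher by 13.3, 21.4, 16.5 and 22.4 points. These 4 differences share the same siCtrl library, which had the lowest share of all libraries, so they are not independent. In batch 2 the distal PAS took 99.3% of reads in siCtrl and 98.6% in siStarPAP, a difference of 0.746 points, and the proximal PAS had 7 and 14 reads there. By RPM the distal PAS had a log2 ratio of 1.10 in siStarPAP of batch 1 and the proximal PAS one of 0.24. In siPAPag the distal PAS had 0.50 and the proximal PAS -1.10.

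H3F3B kept to its main PAS in each library. That PAS took 86.6% of reads in siCtrl of batch 1, 85.1% in siStarPAP, 84.1% in siPAPa, 77.9% in the library labelled siPAPg and 82.5% in siPAPag, beside 85.7% for siCtrl in the table of siPAPag, which lists 4 PASs and not 2. The PAS 791 nt further on took the rest of the reads of the first table, from 13.4% in siCtrl to 22.1% in the library labelled siPAPg, a change of 8.74 points (7.75 to 9.72). In batch 2 the main PAS took 67.6% in siCtrl and 61.6% in siStarPAP, a change of -5.94 points (-10.1 to -1.76). Both changes stayed under 10 points in size.

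CENPA spread its few reads over several PASs. The most distal one, which lies in an intron of a longer annotated transcript, took 31.8% of the 66 reads in siCtrl of batch 1, 19.4% in siStarPAP, 50.9% in siPAPa, 35.3% in the library labelled siPAPg and 66.2% in siPAPag. The intronic PAS 4148 nt upstream of it took 7.58% in siCtrl and 32.8% in siStarPAP, with 5 and 22 reads, a difference of 25.3 points (10.9 to 38.8). The distal PAS gained 34.4 points (17.2 to 49.5) in siPAPag, and another, which took 28.8% of reads in siCtrl, was at 1.30% there with 1 read. This other PAS took 10.4% in siStarPAP, 3.57% in siPAPa and 20.6% in the library labelled siPAPg. Its change in siPAPa, -25.2 points (-37.9 to -13.5), was the largest of CENPA in that library. A last-exon PAS at chr2:27016910 took 31.8% in siCtrl, as much as the most distal one, and 37.3% in siStarPAP, the most of any PAS there. It took 40.2% in siPAPa, 25% in the library labelled siPAPg and 13.0% in siPAPag, a change of -18.8 points (-33.1 to -4.28) in siPAPag. In siPAPag the intronic PAS took 19.5%, with 15 reads, and in batch 2 it had 2 of 23 reads in siCtrl and 0 of 14 in siStarPAP, too few for the test and opposite in direction to batch 1. These shares rest on at most 57 reads per PAS.

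H3F3A had all of its 70 reads at its annotated end in siCtrl of batch 1 and 16 of 96 reads at a PAS 1034 nt further on in siPAPa, 16.7% (9.84% to 25.7%). In siCtrl the 0 of 70 reads allow a share of up to 4.29% (exact upper bound 5.13%), in the library labelled siPAPg the PAS took 4.30% and in siPAPag 5.10%. The intervals of these last 2 differences from siCtrl spanned 0 (-1.70 to 10.6 and -1.07 to 11.5 points). H2AFX in batch 1 and H1F0 in batch 1 had several PASs but too few reads for the test, and in batch 2 all of their reads lay at the annotated end, 3907 and 248 in siCtrl. H2AFZ had a second PAS 37 nt beyond the first, with 26 of 1130 reads in siCtrl beside siPAPag and 5 of 771 in siPAPag. In batch 2 this PAS had 6 of 69 reads (8.70%) in siCtrl and 6 of 37 (16.2%) in siStarPAP, too few for the test.

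Across the 5 comparisons, the genes whose log2 RPM ratios lay nearest to those of H2AFZ, among 3765 genes with at least 50 reads in every library, were GUSB, COL6A1 and ZADH2, at a mean absolute difference of 0.23, 0.29 and 0.32 (median over all these genes 1.15). H2AFZ itself had 37 reads in one library and is below that minimum. For H3F3B they were CCDC59, C12orf44 and CD59, at 0.077, 0.087 and 0.10 (median 0.54). These are likenesses over 5 ratios of which 4 share a control.

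Of 31 symbols of histone chaperones and exchange factors, general ones included, 28 were tested in edgeR, where 1 was up and 0 were down. Their median log2 fold change was 0.45 beside -0.0024 for all genes. The gene that was up was NPM1, a nucleolar histone chaperone, with 60.1, 91.2, 88.3, 74.1 and 78.3 RPM in siCtrl, siStarPAP, siPAPa, the library labelled siPAPg and siPAPag, and 82.8 and 309.2 RPM in siCtrl and siStarPAP of batch 2. Its log2 fold change was 1.60 (SE 0.35, edgeR adjusted p = 0.0173). At the 2-fold cut-off of single libraries 2, 3, 2, 4 and 1 of these factors were down and 0, 2, 2, 4 and 5 up, in the order of comparisons above, of 28, 28, 28, 27 and 20 tested. Beside these stand 26.2%, 22.1%, 20.7%, 26.5% and 11.7% of all genes down and 4.44%, 8.5%, 5.67%, 6.98% and 3.55% up.

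Of 10 other histone genes whose mRNAs are polyadenylated, 2 were tested in edgeR and 0 passed. H2AFJ, a further H2A variant gene, had 84.2 RPM in siCtrl, 21.6 in siStarPAP, 4.90 in siPAPa, 16.0 in the library labelled siPAPg and 5.32 in siPAPag, so that these 4 KDs all lay more than 2-fold below siCtrl, lowest where PAPα was targeted. In batch 2 it had 41.2 RPM in siCtrl and 38.1 in siStarPAP, and the fit over both batches gave -0.71 (SE 0.38, edgeR adjusted p = 0.401). H2AFY2, the second macroH2A gene, had 5.16 RPM in siCtrl of batch 1 and 1.81 to 3.58 in the KDs, with -0.60 (SE 0.64, edgeR adjusted p = 0.728) over both batches.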

How the data were processed

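For 7 HEK293 libraries, the authors aligned 3′READS reads by Bowtie2 (genome hg19). PASS reads are those that mapped uniquely (MAPQ above 10) and carried 2 or more untemplated Ts. Sites up to 24 nt apart were merged into a PAS, rare PASs were dropped, and the counts of reads at each PAS were deposited, without normalization, in 3 tables. From these, sense PASs were summed per gene symbol as listed, and RPM used the PASS read totals that the study gives per library. A low-abundance PAS may be missing from a table, and then its count is not known.

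With 1 library per condition, a gene was called at a change above 2-fold with more than 50 reads in the pair, and PAS use at 10 points with at least 50 reads in both. Ratio intervals are exact binomial and share intervals Clopper-Pearson (95%), with differences of shares combining their bounds. siStarPAP was tested over both batches with edgeR (quasi-likelihood, TMM factors, filter on low counts, batch as a block, 1 residual degree of freedom). The batch is in the labels, and same-batch libraries deviated together from the group means (r = 0.871 across genes). Nothing in the labels says that libraries came from separate cultures, so p-values measure the spread between these libraries.

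The genes named were the 9 variants, PASs with at least 5% of the reads of their gene, genes of 2 further lists called by edgeR or else those with the 2 smallest p, the 3 genes nearest to H2AFZ and to H3F3B, and the knocked-down genes. The members and lists were chosen with earlier results of these data known. Alternatives changed scaling, filters, thresholds, PAS merging and the tool, and 1, which left out PASs listed under more than 1 gene, was chosen after seeing the data. The steps were tested on simulated data. Sequences are from the GRCh37 genome and gene ends from its GENCODE annotation. R 4.3.3, edgeR 4.0.16, DESeq2 1.42.0, Python 3.11.15, numpy 2.4.6, pandas 2.3.3, scipy 1.17.1 and matplotlib 3.10.9 were used.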

Additional observations from a re-analysis of the deposited data

Results flagged for a closer look

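H2AFY moved in opposite directions after Star-PAP KD in the batches, with a log2 RPM ratio to siCtrl of -1.18 in batch 1 and 0.64 in batch 2. The difference between the batches was not tested. At the last-exon PAS alone the ratios were -1.18 and -0.73, and of these tables the intronic PAS was listed in that of batch 2 alone. H3F3A had -0.51 in batch 1 and 2.16 in batch 2, also not tested, with 4 and 15 reads in batch 2, 4 of the latter at a PAS 10644 nt beyond its annotated end. A PAS on the opposite strand upstream of H3F3A, which the comparisons leave out, had 6 reads in siPAPag and 0 in siCtrl, above the 3 that a count of 0 allows. At the same place siPAPa had 3 reads and siStarPAP and the library labelled siPAPg had 0.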

How the results depend on the processing

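The number of histone variant genes past 2-fold was 4 in siStarPAP of batch 1, and 2 with TMM factors, 2 with DESeq2 size factors and 2 with more than 200 reads. In siPAPa it was 2, and 1 with table totals, TMM or size factors or more than 200 reads, and 5 above 1.5-fold. In the library labelled siPAPg it was 2, and 0 with table totals, TMM or size factors, 4 above 1.5-fold and 1 with more than 200 reads. In siPAPag it was 4, and 2 with table totals and 0 with TMM or size factors. In siStarPAP of batch 2 it was 1, and 3 above 1.5-fold. The number with changed PAS use was 2 in siStarPAP of batch 1, and 1 at 20 points, 0 in last exons alone and 1 with at least 200 reads. It was 3 in siPAPa and 1 with at least 200 reads, 1 in the library labelled siPAPg and 0 at 20 points or in last exons alone, 2 in siPAPag and 1 in last exons alone or with at least 200 reads, and 1 in siStarPAP of batch 2 and 0 in last exons alone. H2AFV drops out of the last-exon comparison because its PASs are typed as intronic. Another 43 counts, some of edgeR among them, stayed within 1.5 times. The edgeR counts that moved further are given below.

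In edgeR 1 gene, H2AFZ, passed without the expression filter, and 0 of the 9 under the rest. Over all genes 274 passed, 444 without the filter, 135 without PASs shared between genes, and 0 without the replicate block (edgeR, with 54 genes at an unadjusted p below 0.05, 0 of them histone variant genes, and DESeq2 with the block calling 282). Without the block the log2 fold change was 0.047 for H2AFX, -0.27 for H2AFY and 1.79 for NPM1, which no longer passed. With 1 batch left out, log2 ratios on TMM factors ran from -2.41 to -0.47 for H2AFZ, -1.91 to -0.62 for H1F0, 0.33 to 1.29 for H2AFV, -0.81 to 0.043 for H2AFX, -0.70 to 0.82 for H2AFY, -0.035 to 2.33 for H3F3A, -0.23 to 0.31 for H3F3B and -0.015 to -0.0015 for H1FX, the last 5 of which changed sign against the fit over both batches in 1 of the batches or, for H1FX, in both. The cause was not tested. Depth limits H3F3A, CENPA, and H2AFX and H1F0 in batch 1, which rest on 4 to 112 reads per library.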

Other observations

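Among the histone chaperones and exchange factors, 3 were chosen here after their values were seen. ATRX, which deposits the replacement H3 at repeats, had 5.25 RPM in siCtrl of batch 1, 5.92 in siStarPAP, 20.6 in siPAPa, 14.9 in the library labelled siPAPg and 15.8 in siPAPag. CABIN1, of the HIRA complex that deposits it elsewhere, had 3.5, 5.44, 7.41, 10.5 and 14.4 RPM in the same order. Both were past 2-fold up in siPAPa, the library labelled siPAPg and siPAPag. In siStarPAP CABIN1 was not past 2-fold in either batch, and ATRX was not in batch 1, while in batch 2 it had 5 reads (0.99 RPM) in siCtrl and 12 (2.82 RPM) in siStarPAP, a log2 ratio of 1.51 with too few reads for the test. HJURP, the chaperone of CENPA, had 64.8 RPM in siCtrl, 35.9 in siStarPAP, 41.5 in siPAPa, 27.2 in the library labelled siPAPg and 35.0 in siPAPag, past 2-fold down in the library labelled siPAPg alone.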
